A study of Drosophila melanogaster with 4 samples.

Results

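CG8924 is a Drosophila melanogaster protein that is named here only by its annotation number. Its binding was mapped by ChIP-seq, which sequences the DNA recovered with a protein, in whole embryos of 0 to 24 h and pooled sexes. All 4 biological replicates came from 1 transgenic line that stably expresses CG8924 with GFP fused to its C terminus, and the description names an anti-GFP antibody where another label names CG8924 itself. There is 1 group and no untagged or second condition, and a whole embryo mixes all its cell types. The authors deposited 30000 peaks per replicate, 30000 from pooled reads, and 7842 that passed a reproducibility threshold (IDR, which keeps peaks ranked alike between replicates).

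The subject is the 210 of these 7842 thresholded peaks whose summit, the highest point of a peak, lies within 500 bp of an annotated start of a non-coding RNA gene and of no protein-coding gene. They are called non-coding promoter peaks. They are set against 3926 coding promoter peaks, which have a coding start within 500 bp, and 3705 peaks with no start of any gene within 500 bp. No expression was measured, so a summit near a gene's start is a position and not evidence that the gene is regulated or transcribed.

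Long non-coding RNAs (lncRNAs) are RNA polymerase II transcripts without a long open reading frame, and antisense RNAs are those that overlap another gene on the opposite strand. tRNA genes, U6 and 7SK are transcribed by RNA polymerase III, most other spliceosomal snRNAs by polymerase II, and many snoRNAs and microRNAs are cut out of longer host transcripts. For such processed RNAs the annotated start is that of the RNA, which need not be where transcription begins.

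The summit and 50 bases on either side are shown, on the plus strand of dm6 (Release 6), because they carry the base composition described below. They belong to the 8 highest of these peaks on arms 2L, 3L, 3R and X that all 4 replicates support, at ranks 41 to 182. The highest peak of all, at lncRNA:CR44339, lies on another arm and is not shown. Runs of 8 or more A or T are in capitals. The windows are chr3R:17700542-17700642, chr3R:29214395-29214495, chrX:12752283-12752383, chr2L:14024046-14024146, chrX:15298419-15298519, chr2L:14022272-14022372, chr3R:11780272-11780372 and chr3L:3250154-3250254, in the order of the lines.
lncRNA:CR46036: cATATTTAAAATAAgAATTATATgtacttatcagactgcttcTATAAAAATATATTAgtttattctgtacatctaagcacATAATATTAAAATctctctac
lncRNA:CR31044: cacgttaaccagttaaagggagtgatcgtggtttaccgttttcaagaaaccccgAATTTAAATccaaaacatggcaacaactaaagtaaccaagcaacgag
lncRNA:CR44619: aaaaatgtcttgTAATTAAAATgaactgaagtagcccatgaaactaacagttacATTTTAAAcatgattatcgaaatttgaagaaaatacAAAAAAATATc
lncRNA:CR31840: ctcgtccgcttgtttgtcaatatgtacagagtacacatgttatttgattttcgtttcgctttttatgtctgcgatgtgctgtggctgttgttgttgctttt
asRNA:CR44429: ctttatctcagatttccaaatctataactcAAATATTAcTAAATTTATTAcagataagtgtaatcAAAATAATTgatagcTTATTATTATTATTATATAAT
lncRNA:CR45352: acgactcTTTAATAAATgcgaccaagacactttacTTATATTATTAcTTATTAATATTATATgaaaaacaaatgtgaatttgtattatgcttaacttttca
lncRNA:CR45595: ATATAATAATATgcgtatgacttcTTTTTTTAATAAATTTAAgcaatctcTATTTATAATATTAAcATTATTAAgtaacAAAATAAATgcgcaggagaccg
lncRNA:CR43626: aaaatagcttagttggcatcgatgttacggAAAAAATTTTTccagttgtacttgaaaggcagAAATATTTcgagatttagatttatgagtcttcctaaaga

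The window at CR31840 holds no such run, that at CR31044 holds 1, and that at CR45595 holds 5.

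Non-coding promoter peaks were mostly lncRNA peaks, and lncRNAs also make up most of the annotated non-coding genes (1944 of 3470). Of the non-coding genes with no coding start within 500 bp, they are 1683 of 2900. Classes follow the annotated type and name of a gene, so an RNA named lncRNA can also lie opposite a coding gene. The nearest non-coding gene was an lncRNA for 160 of the 210 (76.2%), an antisense RNA for 15, a tRNA for 10, a microRNA for 9, a snoRNA for 8, an snRNA for 7 and the snoRNA host gene Uhg4 for 1. The 210 summits lay at 192 distinct genes, and 17 genes had more than 1 summit. lncRNA:CR43650, whose transcript contains the microRNA mir-8, had 3. A second such summit lay within 5000 bp for 53 of the 210.

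The share of these peaks was steady between replicates. Applying the rule to the 7842 highest peaks of each replicate, its own list, gave 196, 220, 209 and 223 such summits in replicates 1 to 4, a mean of 2.70% ± 0.156 (SD, n = 4). Coding promoter peaks made up 50.1% ± 2.46 of the same lists. Down the pooled list, in successive bands from the 7842 highest peaks to the lowest 6474, the non-coding share was 2.68%, 3.03%, 3.26% and 2.70%. The coding share over the same bands was 50.1%, 32.8%, 21.0% and 14.2%, so the non-coding share held its level where the coding share fell with rank.

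The authors' signal, which ranks peaks only within its own list, ran from 297 to 7142 in non-coding promoter peaks with a median of 550, and had a median of 537 in coding promoter peaks. Their median rank in the thresholded list was 3598, against 3742. Within the replicates the median rank of the matching peak averaged 3347 ± 91.0 for non-coding and 3328 ± 245 for coding promoter peaks (SD, n = 4; exact sign-flip permutation p = 1.00, adjusted p = 1.00), higher in 2 of 4 replicates. The difference in median rank, 18.9 places with an SD of 332 over the replicates, was smaller than its spread. Their median width was 424 bp, against 480 bp.

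A peak was supported by a replicate if one of that replicate's own 7842 highest peaks overlapped it. All 4 replicates supported 140 of the 210 non-coding promoter peaks (66.7%, 95% interval 59.9 to 73.0), 68.5% of coding promoter peaks and 59.5% of peaks far from any start. The share over all thresholded peaks was 64.2%. A further 33 of the 210 had 3 supporting replicates, 21 had 2 and 16 had 1. Support by only 1 replicate was more frequent in non-coding promoter peaks, at 7.62% (95% interval 4.42 to 12.1). It was 2.47% in coding promoter peaks, 4.89% in peaks far from any start and 3.75% over all thresholded peaks. Support by 3 replicates was less frequent, at 15.7% against 18.7%, 20.9% and 19.7%, and the share with 2 was not above theirs. Replicates 2, 3 and 4 made the list, so replicate 1 is the library that did not, and it supported 84.3% of the non-coding and 86.3% of the coding promoter peaks. Averaged over the 4 replicates, support was 85.4% ± 1.37 and 88.3% ± 1.43 (SD, n = 4), lower in all 4 replicates, with a difference of -2.91 ± 1.64 points (exact sign-flip permutation p = 0.13, adjusted p = 0.175). That difference depended on the settings. It was -0.00251 points with a 200 bp window, -0.487 among the 3921 highest peaks, -0.610 with double the replicate peaks and -0.296 with all of them, and turned positive, to 0.940 for 50% mutual overlap and 0.261 for summits within 100 bp.

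Support followed height in both groups. In the highest signal quartile of the list 100% of the 55 non-coding and 98.8% of the coding promoter peaks had all 4 replicates, and in the lowest quartile 13.2% of 53 and 20.1%. Among non-coding promoter peaks, those at lncRNAs, antisense RNAs and Uhg4 had 69.3% full support (122 of 176) and those at tRNA, snRNA, snoRNA and microRNA genes 52.9% (18 of 34, interval 35.1 to 70.2). Their median ranks were 3381 and 4784.

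The 20 highest non-coding promoter peaks were supported by all 4 replicates. Of them 19 were nearest an lncRNA and 1 an antisense RNA, 16 lay outside coding genes and 4 in introns, and 14 lay upstream of the start. Function is not known from the files for most of these RNAs, which carry only annotation numbers, so the neighbouring coding genes are named to place them.

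lncRNA:CR44339 was the highest, at rank 10 of 7842, with ranks 18, 13, 5 and 10 in replicates 1 to 4. Its summit lay 176 bp upstream of the RNA's start on arm 2R (chr2R:12985191) and 4197 bp from the start of Psc, which encodes a Polycomb group protein. lncRNA:CR46036, at rank 41, had ranks 32, 50, 42 and 52. Its summit lay in an intron of osa, a chromatin-remodelling subunit gene on the opposite strand.

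lncRNA:CR31044, at rank 46, came next, with ranks 69, 43, 51 and 26, and its transcript contains the microRNAs mir-279 and mir-996. The summit lay 117 bp upstream of that transcript's start and 1140 bp from the nearer of these hairpins. lncRNA:CR44619, at rank 77, shares a 2018 bp interval with a stronger summit, so its ranks of 81, 75, 75 and 100 are those of the replicate peaks at its own summit.

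asRNA:CR44429, the only RNA among the 20 that the annotation names antisense, was at rank 123 with ranks 90, 153, 119 and 180. Its summit lay in an intron of gce, a juvenile hormone receptor gene on the opposite strand. It was 540 bp from a start of gce, just past the limit, and gce had a promoter peak of its own. lncRNA:CR31840, at rank 116 with ranks 187, 141, 74 and 57, and lncRNA:CR45352, at rank 124 with ranks 92, 149, 124 and 201, lie near each other on arm 2L. Replicates 1 and 4 placed that pair in opposite orders.

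Of the other peaks among the 20, lncRNA:CR43626 at rank 182 contains the microRNA mir-282, whose hairpin lay 818 bp from the summit. lncRNA:CR42657 at rank 194 lay 677 bp from nej, which encodes the histone acetyltransferase CBP. The summits at lncRNA:CR44868 and lncRNA:CR44867, at ranks 252 and 313, lay in intronic sequence of beat-Ib, a gene of an axon guidance family on the opposite strand. The summit at lncRNA:CR45668, at rank 431, lay 656 bp from a start of the actin gene Act5C, with ranks 536, 298, 1232 and 363, lowest in replicate 3. CR45595, CR44676, CR45541, CR44810, CR44380, CR44363 and CR45251 made up the rest with ranks 175, 270, 273, 306, 328, 408 and 501.

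lncRNA:Hsromega, a stress-induced nuclear RNA that organises omega speckles, had 2 summits in 1 interval. The higher was at rank 414 with ranks 337, 490, 528 and 472, 144 bp downstream of the start. The lower was at rank 1471, 151 bp upstream of another start of the gene.

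**Figure D1:**
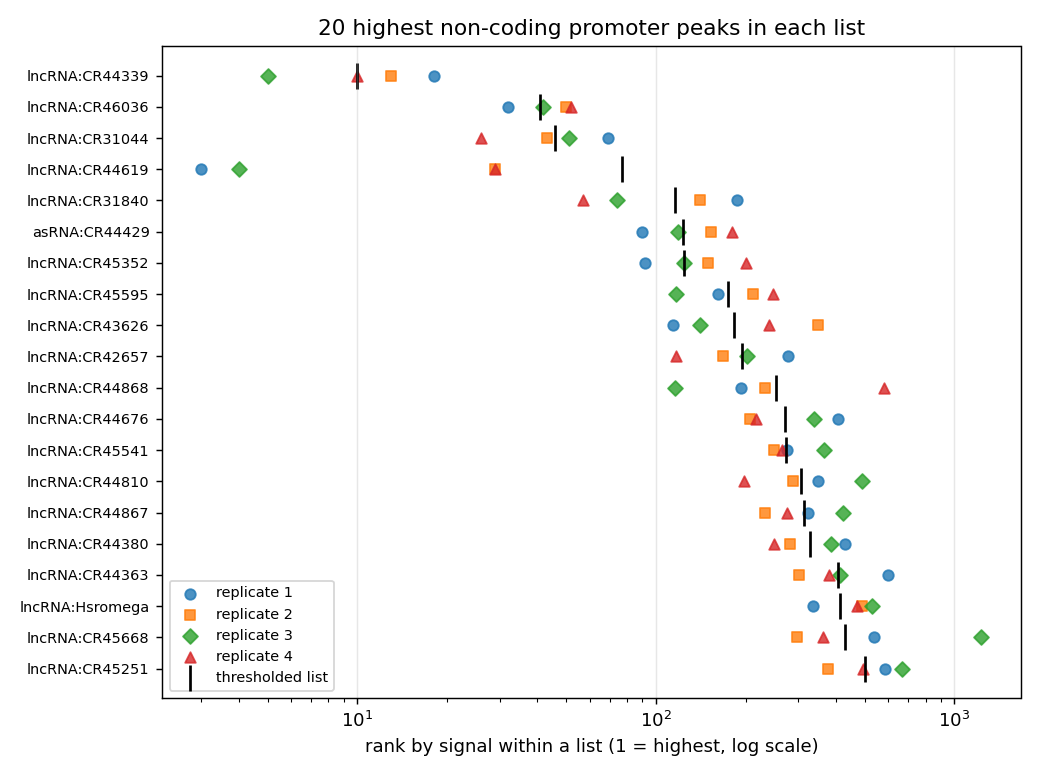
Rank by signal (log axis, 1 the highest) of the overlapping peak in each of the 4 replicate lists (symbols) and in the thresholded list (black bars) for the 20 highest non-coding promoter peaks. Most replicate ranks sit near the thresholded rank. At CR44619 the symbols show the stronger summit of the shared interval, and at CR45668 replicate 3 stands apart at 1232.

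Summits were spread over the window instead of gathering at the start. Within 100 bp of the start lay 19.0% of non-coding promoter summits and 46.6% of coding ones, and the median distance was 245 bp against 110 bp. Upstream of the start lay 53.8% and 69.5%. In the replicates' own lists, summits within 250 bp made up 51.0%, 59.1%, 54.1% and 54.7% of non-coding promoter peaks, and the mean was 54.7% ± 3.33 against 81.8% ± 2.18 for coding promoter peaks (SD, n = 4). The share was lower in all 4 replicates, with a difference of -27.1 ± 1.46 points (exact sign-flip permutation p = 0.13, adjusted p = 0.175). The 2 groups of replicate values did not overlap.

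**Figure D2:**
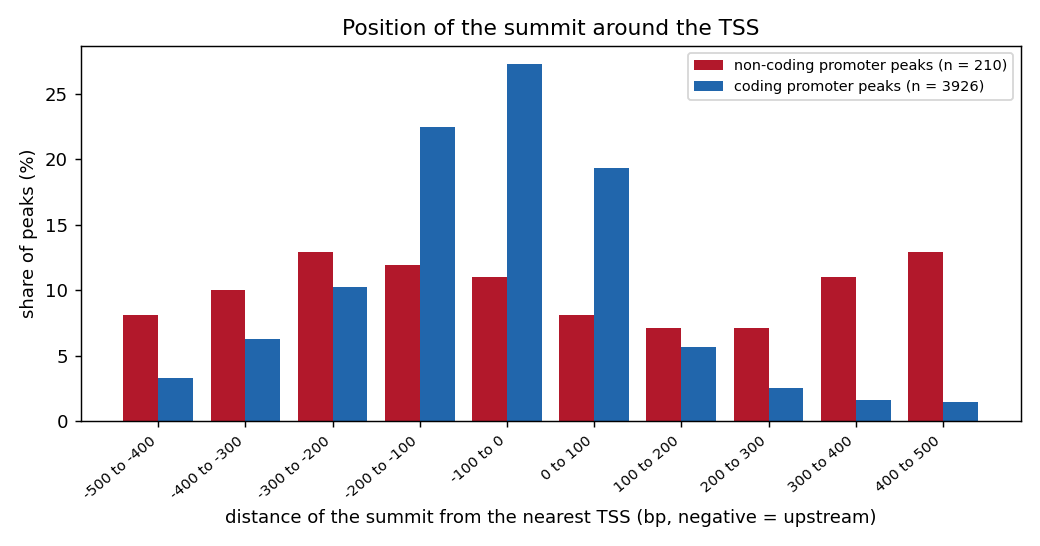
Share of non-coding (red, n = 210) and coding (blue, n = 3926) promoter peaks in each 100 bp step of distance from the nearest start, negative upstream. Red bars stay between 7.14% and 12.9%, whereas blue bars reach 27.3% just upstream of the start.

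Counted per base of sequence, summits were less dense at non-coding than at coding starts. There were 77.0 thresholded summits per Mb within 250 bp of a non-coding start, 84.6 from there to 500 bp, 65.9 up to 1000 bp, 56.1 up to 2000 bp and 40.6 up to 5000 bp, counting only places with no coding start within 500 bp. The same steps around coding starts held 384, 102, 53.5, 45.0 and 37.3 per Mb. Sequence with no start within 500 bp held 32.0 per Mb. In the replicates' own lists the density within 500 bp was 81.3 ± 4.70 per Mb at non-coding starts, 256 ± 12.6 at coding starts and 32.0 ± 1.64 away from any start (SD, n = 4).

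**Figure D3:**
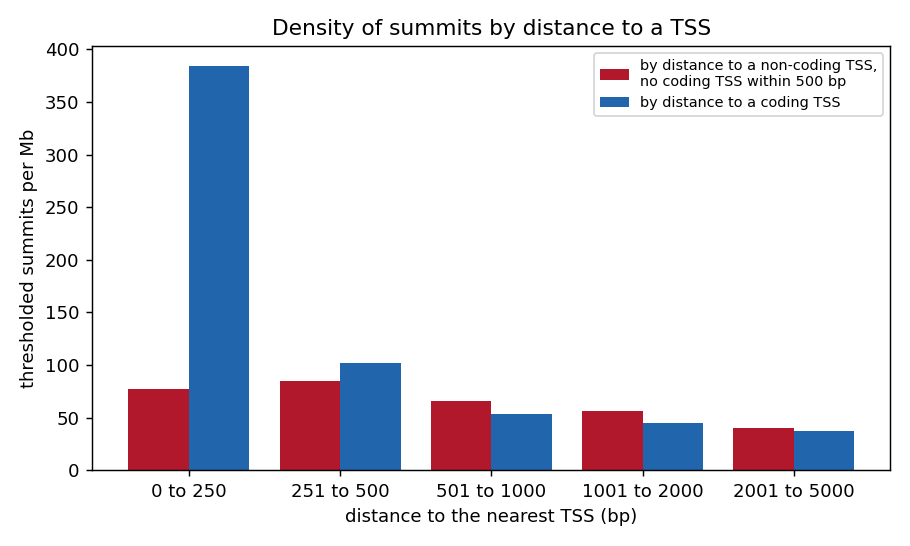
Thresholded summits per Mb by distance to the nearest non-coding start with no coding start within 500 bp (red) and to the nearest coding start (blue). Density within 250 bp was 77.0 per Mb at non-coding and 384 per Mb at coding starts.

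By class of gene, the density within 500 bp was 95.8 per Mb at lncRNAs, 64.7 at snoRNAs, 57.3 at tRNAs, 44.6 at antisense RNAs, 44.4 at microRNAs and 265 at snRNAs. The snRNA value rests on 7 summits in 0.0264 Mb, and 2 of them are at U5:63BC. No summit lay at an rRNA gene.

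Seen from the genes, 367 of 3470 non-coding RNA genes (10.6%) had a thresholded summit within 500 bp of a start, against 4383 of 13945 protein-coding genes (31.4%). Over all genes the share was 27.3%. Among the 2900 non-coding genes with no coding start within 500 bp the share was 7.59%. In the replicates' own lists it was 7.80% ± 0.627 for these genes and 31.0% ± 0.373 for coding genes (SD, n = 4), lower in all 4 replicates, with a difference of -23.2 ± 0.815 points (exact sign-flip permutation p = 0.13, adjusted p = 0.175).

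**Figure D4:**
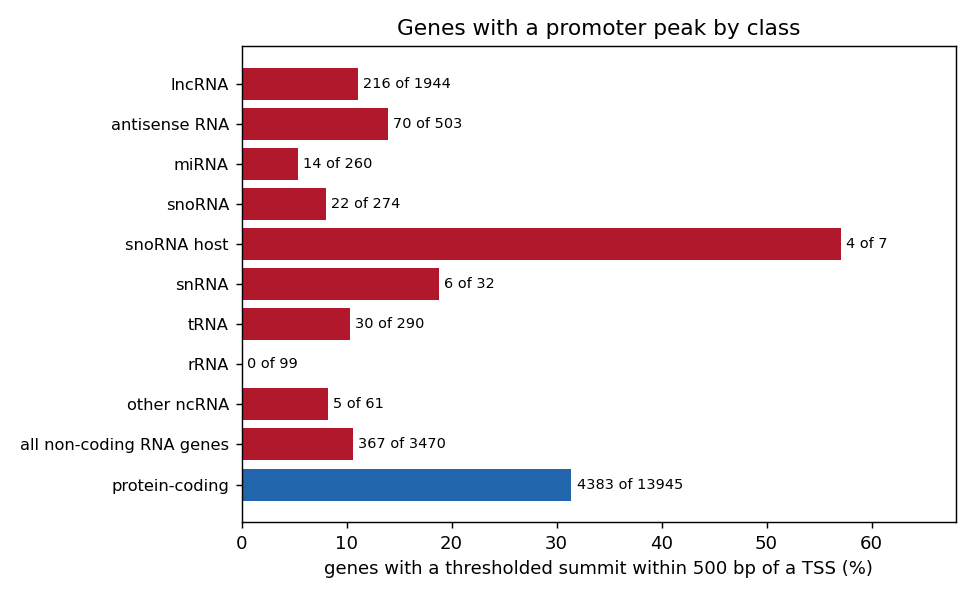
Share of genes of each class with a thresholded summit within 500 bp of a start, non-coding classes in red and protein-coding genes in blue, with the counts beside the bars. lncRNAs reached 11.1%, tRNAs 10.3%, rRNAs 0%, and protein-coding genes 31.4%.

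Small RNA genes with a peak were few in number. As a share of the class, a promoter peak was at 10.3% of tRNA, 18.8% of snRNA, 8.03% of snoRNA and 5.38% of microRNA genes. Over all non-coding genes it was 10.6%. Members of one family can share sequence, so assignment to single tRNA and snRNA genes is uncertain. Among tRNAs the highest peaks were at Gln-TTG-2-1 (rank 689, with ranks 920, 440, 1157 and 448), Arg-CCT-1-2 (2978) and Pro-TGG-1-2 (3352). Those at snoRNAs were Or-ACA6 (1394), snoRNA:185 (2691) and Or-ACA9 (3958). Those at microRNAs were mir-9377 (826), mir-9378 (2156) and mir-ban (2687), the last encoding bantam, which promotes growth and restrains apoptosis. The annotated starts used here are those of the processed RNAs. The summits at mir-9377 and mir-9378 lay in introns of Tis11 and CG17124, coding genes on the same strand. Downstream of the annotated start lay those at mir-9377, by 364 bp, and mir-ban, by 406 bp. lncRNA:CR43334, whose transcript contains mir-ban, had its own peak at rank 2368, with the summit 13877 bp from mir-ban. Besides CR44429, the highest antisense RNA peaks were at CR45908 (670) and CR45999 (678).

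Over all non-coding RNA genes, 206 of 3470 (5.94%) had a non-coding promoter peak. Of 29 U snRNA genes, the spliceosomal ones and U7, 5 had one, namely U5:63BC (ranks 2317 and 4747), U1:95Ca (3501), U4:39B (4820), U2:34ABb (6248) and U1:21D (7625). At U1:95Ca the summit lay 9 bp from the start, with replicate ranks 3129, 4849, 5119 and 3318. snRNA:7SKa, an RNA that holds the elongation factor P-TEFb inactive, had a peak at rank 6415. Replicates 2 and 4 held it at ranks 2497 and 2056, and replicates 1 and 3 held no overlapping peak. Its copy 7SKb, both 7SL genes and the RNase P and MRP RNA genes had none.

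On a list of RNAs with a known role, 6 of 19 matched genes had a non-coding promoter peak, against 5.94% of all non-coding genes: Hsromega, Uhg4, flam, yar, acal and roX2. The 19 are long non-coding RNA genes except mir-bft, a microRNA gene without such a peak that is also among the microRNAs listed below. The list was picked for known roles, so its count is a description. Counting any thresholded summit within 500 bp, 9 of the 19 had one, against 10.6% of all non-coding genes. Uhg4, a host of 7 snoRNAs, was at rank 708 with ranks 1187, 755, 423 and 419, 21 bp upstream of its start. The flamenco piRNA locus flam was at rank 2053, with ranks 2292, 1400, 2447 and 2984, 136 bp upstream. These 2 were supported by all 4 replicates.

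The 3 others lay lower in the list. roX2, a component of the male dosage compensation complex, was at rank 7770 and was supported by 1 replicate. yar was at rank 6703 with 1 supporting replicate, and acal, which modulates JNK signalling in the embryo, at rank 7375 with 3. The other dosage compensation RNA, roX1, was at rank 11069 of the pooled list, outside the thresholded list. Uhg2, Uhg5 and Uhg8 had a promoter peak but with a coding start within 500 bp. bxd, iab8, CRG, sphinx and cherub had none.

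Of 24 listed microRNA genes 3 had a non-coding promoter peak, at mir-ban, mir-14 (rank 6796) and mir-275 (7399), against 3.46% of all microRNA genes and 5.94% of all non-coding genes. mir-let7, mir-1, mir-124 and mir-184 were among those without one. For mir-92a the nearest thresholded summit lay 521 bp away, just past the limit. The best ranks listed for its start were 702, 19803, 1666 and 11137 in replicates 1 to 4 and 20624 in the pooled list. They need not belong to that thresholded peak, nor all to the same peak. In all, 11 long non-coding genes with such a peak contain microRNA or snoRNA genes on their own strand, among them CR31044, CR43626, CR43650, CR43651 with mir-14 and CR46006 with mir-276a.

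Most non-coding promoter peaks lay outside coding genes, 147 of 210 (70.0%), with 60 in introns, 3 in untranslated or other non-coding exons and 0 in coding exons, which allows a share of up to 1.43% (3 of 210). The rule leaves out summits near coding starts, which shapes these shares. Neither they nor the strands below are given for other peaks, so they describe the 210 only. Of the 63 inside a coding gene, the non-coding gene ran on the opposite strand for 43 and on the same strand for 19. For 1, at mir-2491, the summit lay in the coding genes CG42346 and fog, which run on different strands. The nearest coding start was a median 3281 bp away, from 508 to 48775 bp. That coding gene had a promoter peak of its own for 46.7% of non-coding promoter peaks and 54.8% of peaks far from any start. Arm X held 13.3% of non-coding promoter peaks, 13.4% of non-coding starts with no coding start near, and 17.9% of all thresholded peaks.

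Base composition dropped at the summit. The median G+C within 50 bp of it was 31.7% in non-coding promoter peaks, 35.6% in coding ones and 30.7% in peaks far from any start, and 500 bp away it was 42.6%, 45.5% and 42.6%. G+C was lower at the summit than 500 bp away for 71.9% of non-coding promoter peaks, 69.4% of coding ones and 76.3% of the peaks far from a start. In the replicates' own lists the median was 34.2% ± 2.06 in non-coding and 36.1% ± 1.71 in coding promoter peaks (SD, n = 4), lower in all 4 replicates, with a difference of -1.98 ± 0.808 points (exact sign-flip permutation p = 0.13, adjusted p = 0.175). With 100 bp on either side of the summit the difference was -0.622 points, lower in 3 of 4 replicates (exact sign-flip permutation p = 0.250). Among the 20 highest peaks G+C ran from 17.8% to 40.6%, and 12 held an A/T run of 12 bp or more. Over all non-coding promoter peaks 35.2% held such a run, against 34.6% of coding ones.

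**Figure D5:**
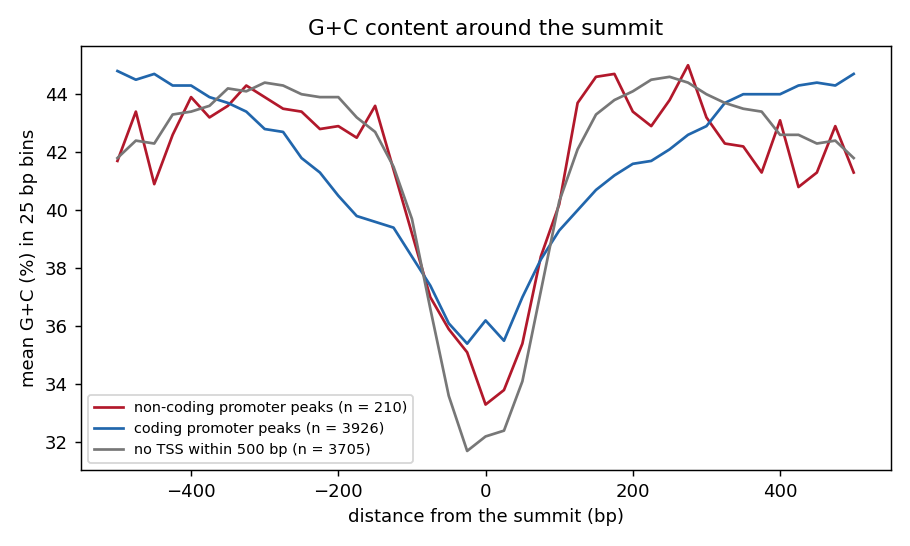
Mean G+C in 25 bp bins by distance from the summit for non-coding promoter peaks (red), coding promoter peaks (blue) and peaks with no start within 500 bp (grey). All 3 curves dip at the summit.

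The word AAATAT occurred within 50 bp of the summit, on either strand, in 34.3% of non-coding promoter peaks and 31.0% of coding promoter peaks. Peaks far from any start held it in 35.5%, all thresholded peaks in 33.2% and windows of the same length at all starts in 15.9%. In windows 500 bp from the non-coding summits it occurred in 14.8%. AAATAAAT occurred in 9.05% of non-coding and 7.59% of coding promoter peaks, against 2.82% of all starts. It was in 7.67% of peaks far from any start and 7.66% of all thresholded peaks. Both words are made of A and T alone, and a match is a description of the letters.

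Of the words known from coding promoters, TATAAA, the letters of the TATA box, was about as frequent as in coding promoter peaks (20.5% against 21.1%). It was in 24.8% of peaks far from any start and 22.8% of all thresholded peaks, so it did not set promoter peaks apart. TATCGATA, GGTCACAC and CAGCTG were rare. TATCGATA, the DNA replication-related element, was found in 0 of 210 non-coding promoter peaks, which allows a share of up to 1.43%, against 3.80% of coding ones. GGTCACAC, the core of the promoter element called Motif 1, was also found in 0 of 210, against 3.18%. The E-box CAGCTG was in 1.43% against 5.91%. Peaks far from any start also held these words seldom, TATCGATA in 0.270%, GGTCACAC in 0.162% and CAGCTG in 2.29%. Non-coding starts themselves held these words seldom, in 0.320%, 0.175% and 3.43% of windows. In the replicates' own lists TATCGATA averaged 0.112% ± 0.224 in non-coding and 3.79% ± 0.308 in coding promoter peaks, GGTCACAC 0.120% ± 0.239 and 3.00% ± 0.332, and CAGCTG 1.76% ± 0.566 and 5.72% ± 0.241 (SD, n = 4). Each was lower in all 4 replicates (exact sign-flip permutation p = 0.13, adjusted p = 0.175).

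GAGAG was in 15.7% of non-coding promoter peaks, 11.4% of coding ones and 11.0% of peaks far from any start. In windows 500 bp from the non-coding summits it was in 13.3%, and at all starts in 12.6%, so it was little raised at the summit. AGATAA, read by GATA factors, was in 9.52% of non-coding promoter peaks, 6.72% of coding ones and 9.23% of peaks far from any start. In the own lists both were higher in non-coding than in coding promoter peaks in all 4 replicates, by 3.90 ± 2.36 and 2.35 ± 1.84 points (SD, n = 4; exact sign-flip permutation p = 0.13, adjusted p = 0.175). TATAAA was in 20.5% of non-coding and 21.1% of coding promoter peaks and 24.8% of peaks far from any start. CAGGTAG, read by Zelda, was in 0.476%, 0.433% and 0.513% of them.

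The limits of the rule cut close to some peaks. Nearest inside the 500 bp limit were the summits at lncRNA:CR44366 and lncRNA:CR44467, both 494 bp from the start, and nearest outside were those at lncRNA:CR44203 at 501 bp and lncRNA:CR44517 at 503 bp. Nearest to being left out for a coding start were lncRNA:CR45805, 508 bp from Pdk1, and lncRNA:CR44498, 513 bp from CG4766, and just left out were lncRNA:CR45618, 482 bp from prtp, and asRNA:CR44996, 489 bp from pes. The 2 lowest peaks of the 210 were at tRNA:Lys-TTT-1-1 (rank 7812) and lncRNA:CR45588 (rank 7789), a gene with another summit at rank 2224.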

How the data were processed

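Peak lists from 4 biological replicates of the CG8924-GFP embryo line were used; per the labels the assembly is dm6. The deposited signal of a peak is the authors' measure of its height and served here to rank peaks inside 1 list at a time. The deposited −log10 q-value was read but not used for a result, and the deposited summit offset placed each summit. Neither aligner nor peak caller is named (not given in the sources used here). Per the deposited notes, replicate 1 did not enter the pooled list or the thresholded one, which rest on replicates 2, 3 and 4. Read depth is unknown, so no interval that needs it is given; the exact 95% binomial intervals (Clopper-Pearson) cover counting error over peaks only. The limit given beside a count of 0 is 3 counts of the total.

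Summits were set against Ensembl release 115 starts. The annotation's 481 mature microRNA entries, which carry no gene symbol, were named by their transcripts. A replicate supported a peak when any of its top 7842 peaks by signal shared 1 bp or more with it. The same rule was applied to those 7842 peaks of each replicate, called its own list. Motifs were looked for on either strand, up to 50 bp from the summit.

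Differences between replicates' values were tested by exact two-sided sign-flip permutation over 4 replicates, with Benjamini-Hochberg adjustment over 14 tests. The smallest p this test allows is 0.13, so no difference can pass 0.05. The members, gene lists, motifs and tests were chosen with earlier results of these data known, and the tests other than support and rank were added after the data were seen. The words AAATAT and AAATAAAT were picked from the summits of other thresholded peaks.

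Genes were named by a rule: the 20 highest peaks, up to 3 peaks of each gene class, list genes with a peak, the 2 lowest peaks and the peaks nearest the 500 bp limits. Sequences are the 8 highest peaks seen in all 4 replicates on arms 2L, 3L, 3R and X. The work used pandas 2.3.3 and NumPy 2.4.6 under Python 3.11.15, SciPy 1.17.1 for intervals, statsmodels 0.14.6 for adjustment and matplotlib 3.10.9, and the steps were tested on simulated peaks. No other per-sample columns were left out (0 unused).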

Additional observations from a re-analysis of the deposited data

Results flagged for a closer look

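Of 35 sets of 4 replicate values tested for 1 value far from the others, 3 stood out, and chance gives about 1 in 20. The TATAAA share of non-coding promoter peaks in the own lists was 27.0% in replicate 1, against 19.1%, 17.7% and 18.4% in replicates 2 to 4. The TATCGATA share was 0.448% in replicate 4 and 0 in the other replicates. The GGTCACAC share was 0.478% in replicate 3 and 0 in the other replicates. With so few matches a single peak sets the last 2 values. No cause was tested.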

How the results depend on the processing

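Of 133 alternative values, 16 moved beyond the spread or 1.5 times, 10 changed sign and 107 did neither. Of these 107, the differences are judged by direction alone, and several shrank. A 200 bp window for both kinds of start gave 102 peaks, 81 of them among the 210 and 21 outside them, since the exclusion of coding starts shrank too. Restricting the list to its 3921 highest-signal peaks left 114 by construction. The own-list share became 1.51% at 200 bp, 3.82% at 1000 bp and 2.92% with the 5′ end of each gene only. Full support became 93.9% among the 3921 highest-signal peaks, 35.2% with 50% mutual overlap, 53.3% with summits within 100 bp, 93.3% with double the replicate peaks and 97.6% with all of them. The share of non-coding genes with a peak became 4.52% at 200 bp, 18.5% at 1000 bp and 6.20% among those 3921. AAATAAAT became 4.90% at 200 bp and 7.89% at 1000 bp, and AAATAT 38.6% among those 3921. The support difference, -2.91, shrank to -0.00251 at 200 bp, -0.487 among those 3921, -0.610 with double and -0.296 with all replicate peaks, and turned to 0.940 and 0.261 points under the 2 stricter overlaps (exact permutation p = 1.00 and 0.750). The rank difference, 18.9, was 93.9 at 1000 bp and turned to -328 at 200 bp (exact permutation p = 0.13), -6.88 among those 3921, -111 without replicate 3 and -30.7 without replicate 4. The G+C difference, -1.98, was -2.45 with 25 bp and -0.622 with 100 bp on either side (exact permutation p = 0.13 and 0.250). Without 1 replicate, the differences ran from -1.44 to 1.10 points for TATAAA, from -0.109 to 0.220 for CAGGTAG (-0.103 without replicate 2) and from -0.00789 to 0.441 for AAATAAAT. The cause was not tested.

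Leaving out 1 replicate at a time, the own-list share ran from 2.66% to 2.77%, full support from 69.0% to 72.9%, the support difference from -3.50 to -2.31, the rank difference from -111 to 134, the share within 250 bp from -27.7 to -26.7, the G+C difference from -2.31 to -1.65 and the gene share difference from -23.5 to -23.0 points. With 3 replicates the smallest exact p is 0.250. Leaving out mature microRNA entries, other G+C widths, the added differences and their values were chosen after seeing the data. No paired analysis was possible because there is 1 group; each difference is already taken within a replicate. Read depth is unknown, and the lists hold only called peaks.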
